A study of Mus musculus with 2 samples.

Results

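The miRNA genes described here are the relatives of the miR-17-92 cluster that lie outside it in the mouse genome. They are Mir106b, Mir93 and Mir25 in an intron of Mcm7, the 6 genes from Mir106a to Mir363 on the X chromosome, and Mir92b on chromosome 3. The members were chosen by gene name, and all 10 were found among the 1973 miRNA genes counted. MicroRNA-seq, sequencing of short RNA, was done on neural tube of mouse embryos at day 13.5. There was 1 condition, with 2 libraries numbered as biological replicates 1 and 2. Both came from healthy embryos of strain B6NCrl, male and female pooled, from separate tissue samples with a shared strain-level donor entry. No gene was deleted and no agent was given. With 2 libraries, 0.5 is the smallest two-sided p that exact sign flips allow, so differences are set against the spread of the libraries and against counting error.

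Clustered miRNAs are cut from a shared primary transcript, and each mature product finds its target mRNAs mainly through its seed, bases 2 to 8 from the 5′ end. The miR-17-92 cluster and its relatives are known for promoting proliferation and survival of progenitor cells in many embryonic tissues. In mice, loss of the Mcm7 intron cluster together with miR-17-92 kills the embryo, while loss of the cluster on the X chromosome alone has no obvious effect. The first of these losses also removes miR-17-92, so they do not compare the clusters with each other.

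The mature sequences below are from RefSeq on GRCm38.p6, with 1 arm chosen for each of the 10 members. They show how the members divide by seed, which is in capitals. The arm shown is the one each family is named for. The counts are per gene and do not separate the arms. Mir106b, Mir93, Mir106a and Mir20b share the seed AAAGUGC, called the miR-17 type here, with Mir17 and Mir20a:
miR-106b-5p: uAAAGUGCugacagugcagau
miR-93-5p: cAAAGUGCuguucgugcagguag
miR-106a-5p: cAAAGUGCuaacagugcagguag
miR-20b-5p: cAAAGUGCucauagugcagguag
miR-17-5p: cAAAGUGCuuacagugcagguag
miR-20a-5p: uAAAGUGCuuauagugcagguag
Mir25, Mir92-2, Mir363 and Mir92b share the seed AUUGCAC, the miR-25/92 type:
miR-25-3p: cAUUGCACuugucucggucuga
miR-92a-3p: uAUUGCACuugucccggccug
miR-363-3p: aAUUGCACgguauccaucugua
miR-92b-3p: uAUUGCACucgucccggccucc
Mir18b and Mir19b-2 are the only members of their types:
miR-18b-5p: uAAGGUGCaucuagugcuguuag
miR-19b-3p: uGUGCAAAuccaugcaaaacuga

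Beyond the seed, the miR-17 type had more positions shared by all its members than the miR-25/92 type had. Over the first 21 bases, all 4 miR-17 type members had the same base at 15 positions, 8 of them beyond base 8. All 4 miR-25/92 type members had the same base at 8 positions, only 1 of them beyond base 8. Here miR-363-3p stood apart, differing from miR-25-3p, miR-92a-3p and miR-92b-3p at 13, 11 and 12 bases. Without miR-363-3p, pairs of miR-25/92 type members differed at 2 to 6 bases, and pairs of miR-17 type members at 2 to 5. Several members lie close in sequence to a gene of the Mir17hg cluster on chromosome 14. Differences are written as the base of the member, the position from the 5′ end, and the base of the relative. From miR-17-5p, miR-106a-5p differs at A10U alone. From miR-20a-5p, miR-20b-5p differs at C1U and C10U. The mature miR-18b-5p differs from miR-18a-5p at U18A and U20A. Mir19b-2 and Mir92-2 encode the same mature 3p sequences as Mir19b-1 and Mir92-1. Their hairpins share unbroken stretches of 25 nt (Mir19b-2) and 22 nt (Mir92-2) with these copies. For the other 8 members, the longest stretch shared with another RefSeq hairpin was 12 to 17 nt.

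The 9 clustered members lie on the minus strand of their chromosomes, as does Mir92b. The Mcm7 intron cluster spans 498 nt at chr5:138165321-138165818 on GRCm38 (the assembly also called mm10), in the order Mir106b, Mir93, Mir25. Mcm7 encodes a subunit of the helicase that licenses DNA replication. Mir93 and Mir25 also overlap the exon of an annotated Mcm7 transcript with a retained intron, and Mir106b overlaps no Mcm7 exon. The cluster from Mir106a to Mir363 spans 875 nt at chrX:52741693-52742567. Only Mir106a in it touches an annotated longer gene, overlapping 5 nt of the exon of the noncoding gene Kis2. Mir92b, at chr3:89227116-89227198, lies outside annotated genes, with Mtx1 on the same strand at a distance of 28 nt. Positions and names are those of GENCODE M21.

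The libraries held 7019469 same-strand counts on miRNA genes in replicate 1 and 5738209 in replicate 2, and values are given as CPM, counts per 1000000 of these totals. The mature sequences of the members are 21 to 23 nt long in RefSeq, and CPM of different genes were compared without a length correction, on the assumption that each read is 1 such product. Read lengths were not analysed here. How well each product is ligated and amplified differs between sequences, so levels of different genes compare counts and not molecules. The libraries were not duplicates of each other: over 371 genes the chi-square statistic, divided by its degrees of freedom, was 201. Of the 11 neural tube markers listed, 10 were in the table and 7 had at least 10 counts in each library. They summed to 370917 CPM in replicate 1 and 360793 in replicate 2, mostly Mir10a and Mir10b of the Hox clusters, with Mir137 at 5025 and 5168 CPM. Among the others, Mir9-3 was at 373 and 415 CPM and Mir9-2 at 1.28 and 0.52 CPM, while the 3 Mir124a copies were at 0 to 4.42 CPM. Multimapping reads were left out of the counts, so any read fitting several copies of a marker is missing here. How far this lowered the Mir9 and Mir124a values was not tested, and the low values do not show that these miRNAs were absent. Markers of other cells were present: endothelial Mir126a at 17134 and 16019 CPM, and the liver gene Mir122 at 118 and 30.7. The 3 mesenchymal genes summed to 7803 and 9178 CPM, with Mir143 at 5024 and 5788, Mir140 at 2699 and 3322, and Mir145a at 79.9 and 67.8. The 3 red cell genes summed to 76.1 and 48.3 CPM. The 3 muscle genes summed to 119 and 378 CPM, nearly all from Mir206 at 117 and 373. Mir133b had 7 and 29 counts and Mir1a-1 had 3 and 0, while Mir1a-2 was not found. The part of such other cells in the results below was not tested. In such bulk tissue, fewer cells of a type and less RNA per cell cannot be told apart.

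The Mcm7 intron cluster was the most abundant of the 3 loci, and Mir92b alone exceeded the whole cluster on the X chromosome. The 3 genes in the Mcm7 intron summed to 13934 and 16405 CPM in replicates 1 and 2, or 1.52% ± 0.17 of the counts (SD, n = 2). Mir92b stood at 2879 and 2528 CPM, or 0.270% ± 0.025. The 6 genes from Mir106a to Mir363 summed to 1472 and 1537 CPM, or 0.150% ± 0.0046. Together the 10 members held 1.83% and 2.05% of the counts. The order of the loci was the same in both libraries, and their values did not overlap. Reads that map to several places are in none of these sums.

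The Mcm7 intron cluster exceeded the cluster on the X chromosome 10.1-fold. The log2 ratio was 3.24 in replicate 1 (exact 95% counting interval 3.21 to 3.27) and 3.42 in replicate 2 (3.38 to 3.45), a mean of 3.33 ± 0.12 (SD, n = 2). Against Mir92b the log2 ratio was 2.27 (2.25 to 2.30) and 2.70 (2.67 to 2.72), a mean of 2.49 ± 0.30, or 5.60-fold. Each mean was larger than the SD of its 2 ratios. Both ratios differed between the libraries beyond counting error, as their intervals did not overlap. The sizes of these ratios rested partly on the most abundant gene of each cluster. Without Mir93, and without Mir106a on the X chromosome, the mean log2 ratio was 2.66 to the X chromosome cluster and 1.11 to Mir92b.

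**Figure D1:**
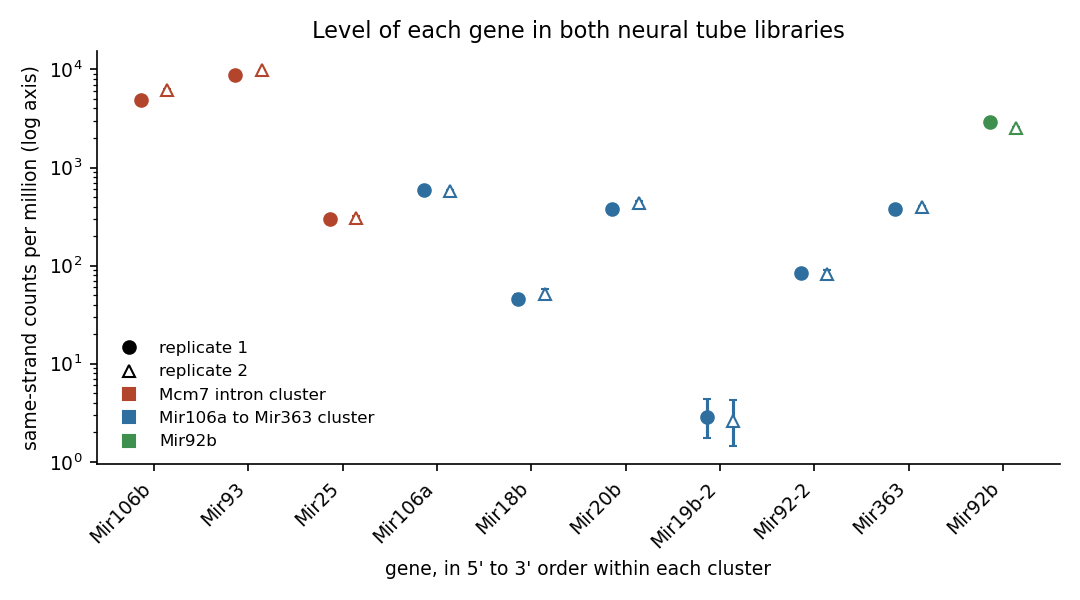
Same-strand CPM (log axis) of each of the 10 genes in replicate 1 (filled circles) and replicate 2 (open triangles), with bars for the exact Poisson 95% interval of the count, coloured by locus. Mir93 and Mir106b stood highest, Mir92b next, and Mir19b-2 lowest at 2.85 and 2.61 CPM. On the log axis the points of the 2 libraries lay close to each other for every gene. The intervals of Mir106b, Mir93, Mir20b and Mir92b did not overlap between the libraries.

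In the Mcm7 intron, Mir93 and Mir106b were abundant and Mir25 was not. Mir93 and Mir106b are miR-17 type miRNAs, known in human and mouse cells to repress the cell cycle inhibitor Cdkn1a. Mir93 was at 8693 CPM in replicate 1 and 9895 in replicate 2, rank 19 of the 1973 genes by mean CPM. Of these genes, 1247 had 0 counts in both libraries. Mir106b was at 4939 and 6203 CPM, rank 27. Mir93 was the higher gene in both libraries, by a log2 ratio of 0.82 in replicate 1 and 0.67 in replicate 2, or 1.68-fold. Mir25, which is known to repress the cell death gene Bcl2l11, was at 302 and 307 CPM, rank 125. It lay 30.4-fold below Mir93, from whose hairpin it is only 118 nt away. Within the cluster, Mir93 held 62.4% of the counts in replicate 1 (Wilson 95% interval 62.1% to 62.7%) and 60.3% in replicate 2 (60.0% to 60.6%). Mir25 held 2.17% (2.08% to 2.26%) and 1.87% (1.79% to 1.96%). The order Mir93, Mir106b, Mir25 was thus kept in both libraries, while the shares moved by more than counting error.

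On the X chromosome the 6 genes spread over a wider range, with no steady fall or rise along the strand. Mir106a, the first gene and of the miR-17 type, was highest at 584 CPM in replicate 1 and 574 in replicate 2, rank 98. Mir20b, also of the miR-17 type, was at 380 and 434 CPM. The last gene, Mir363, which carries the miR-25/92 seed, was at 376 and 393 CPM. Mir106a was above the other 5 genes in both libraries, and the values of Mir20b and Mir363 overlapped between the libraries. The remaining 3 genes were low. Mir92-2 was at 83.8 and 82.3 CPM and Mir18b at 45.7 and 51.1 CPM. Mir19b-2 had only 20 counts in replicate 1 and 15 in replicate 2, or 2.85 CPM (exact Poisson 95% interval 1.74 to 4.40) and 2.61 CPM (1.46 to 4.31). Mir106a exceeded Mir19b-2 by 212-fold. In shares of the cluster, Mir106a held 38.5% ± 1.63, Mir20b 27.0% ± 1.69 and Mir363 25.6% ± 0.052 (SD, n = 2), leaving 5.52% ± 0.24 for Mir92-2 and 3.21% ± 0.15 for Mir18b.

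**Figure D2:**
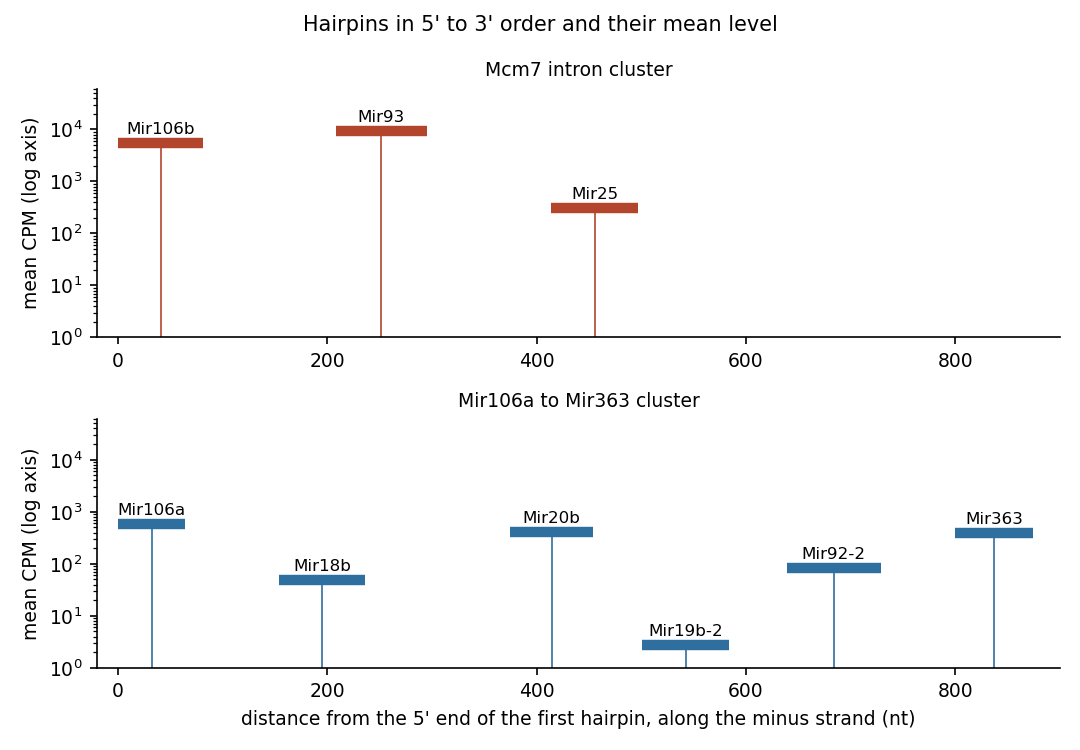
Mean CPM of both libraries (log axis) for each hairpin against its distance in nt from the 5′ end of the first hairpin of its cluster, for the Mcm7 intron cluster (top) and the Mir106a to Mir363 cluster (bottom), the bar width being the hairpin length. Mir25 lay below its neighbours in the Mcm7 intron, and Mir18b, Mir19b-2 and Mir92-2 lay below Mir106a, Mir20b and Mir363.

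Multimapping reads made up 28.5% and 31.0% of all reads, and no gene's count includes them, as inferred from the column sums. Reads of miR-19b-3p and miR-92a-3p, which Mir19b-2 and Mir92-2 share with Mir19b-1 and Mir92-1, may be among them, so the counts of all 4 genes may be too low. How many such reads there were was not measured. Copies of the mature sequences outside annotated hairpins were not searched for, so the counts of the other members may also miss reads. Every value given here that sets a gene against Mir92-1, Mir92-2, Mir19b-1 or Mir19b-2, or against a sum that holds them, is one of counted reads only.

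Mir92b was the miR-25/92 type gene with the most counted reads and the third most abundant member. Multimapping reads of miR-92a-3p are missing from the other genes of this type that encode it, Mir92-1 and Mir92-2. In mouse cortex, miR-92b is known to limit the production of intermediate progenitors by repressing Eomes. Its 2879 and 2528 CPM put it at rank 51, below Mir106b and above Mir106a in both libraries. It exceeded Mir25 8.86-fold, with log2 ratios of 3.25 and 3.04, and Mir363 7.02-fold, with log2 ratios of 2.94 and 2.68. Mir25 in turn was slightly below Mir363, with a log2 ratio of -0.31 in replicate 1 (counting interval -0.40 to -0.23) and -0.36 in replicate 2 (-0.45 to -0.27). All 3 orders held in both libraries.

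Ordered by mean CPM, the members ran Mir93, Mir106b, Mir92b, Mir106a, Mir20b, Mir363, Mir25, Mir92-2, Mir18b and Mir19b-2. The values of neighbours in this order did not overlap between the libraries in 8 of the 9 steps. The exception was Mir20b and Mir363, whose mean log2 ratio of 0.080 was smaller than its SD of 0.087. The largest step, 17.7-fold, was between Mir18b and Mir19b-2.

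Grouped by seed, the members contributed unequally to the 4 types, whose other genes lie mainly in the Mir17hg cluster. The sums treat all counts of a gene as the arm printed above. For Mir92-1, Mir92-2, Mir19b-1 and Mir19b-2 this is least sure, since full-length reads of that arm fit both copies and their counts may hold other reads. The 4 miR-17 type members summed to 14596 and 17106 CPM, 36.1% and 37.3% of the counts on the 7 genes of the table with this seed. Almost all of that came from Mir106b and Mir93, since Mir106a and Mir20b together gave only 964 and 1008 CPM. Mir18b gave 1.50% and 1.52% of the miR-18 type counts, and Mir19b-2 gave 5.75% and 4.63% of the miR-19 type counts, a type with only 348 and 324 counts in all.

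Of the 4 types, the miR-25/92 type was the only one in which the members held most of the counted reads. The pool lacks any multimapping reads of miR-92a-3p, which would belong to Mir92-1 outside the members or to Mir92-2 among them, so the shares of this type hold for counted reads only. The 4 members with this seed summed to 3640 and 3311 CPM, 72.1% and 70.2% of the counts on the 7 genes of the table that carry it. Mir92b alone held 57.0% and 53.6%, and Mir92-1 of the Mir17hg cluster 25.8% and 26.9%, an order that was not tested against the uncounted reads. The X chromosome cluster gave 9.10% and 10.1% through Mir92-2 and Mir363, and the Mcm7 intron 5.98% and 6.51% through Mir25. In make-up, the Mcm7 intron cluster had 98.0% ± 0.21 of its counts on miR-17 type genes and 2.02% ± 0.21 on the miR-25/92 type (SD, n = 2). The cluster on the X chromosome had 65.5% ± 0.053 and 31.1% ± 0.19. Both libraries showed this difference, which was far larger than the SDs.

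**Figure D3:**
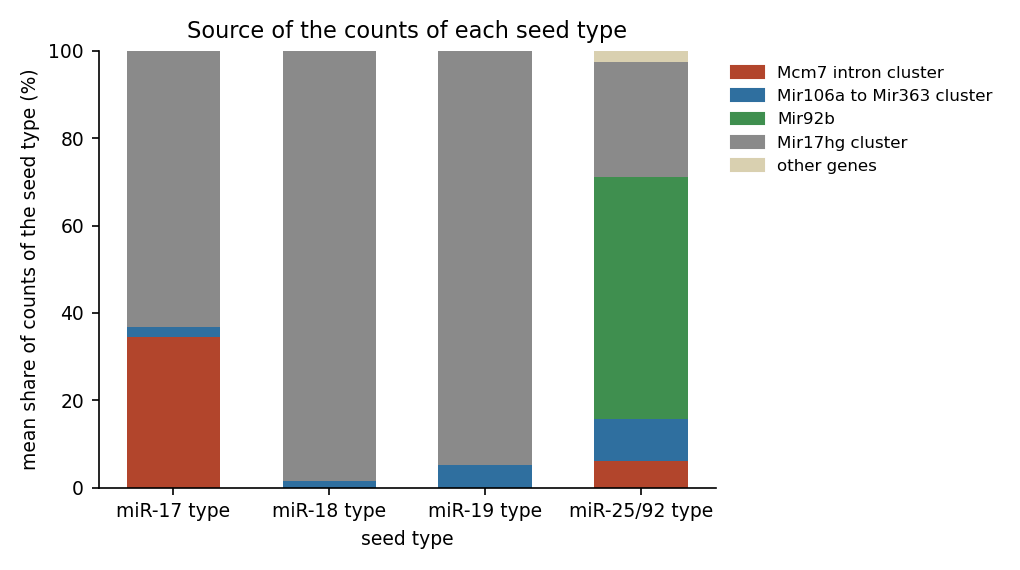
Mean share in percent, over both libraries, of the counts of each seed type that came from the Mcm7 intron cluster, the Mir106a to Mir363 cluster, Mir92b, the Mir17hg cluster and other genes with the same seed. Among counted reads, from which multimapping reads of miR-92a-3p and miR-19b-3p are absent, Mir92b made up most of the miR-25/92 type, the Mcm7 intron cluster a sizeable part of the miR-17 type, and the Mir17hg cluster nearly all of the miR-18 and miR-19 types.

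The Mcm7 intron cluster reached 46.2% and 49.2%, and the X chromosome cluster 4.88% and 4.61%, of the sum of the Mir17hg cluster, which was 30146 and 33339 CPM. On the X chromosome, every gene with a counterpart in the Mir17hg cluster was the lower of the pair in both libraries. Mir106a had 3.12% and 2.93% of the counts of Mir17, and Mir20b 5.35% and 4.77% of those of Mir20a. Mir18b had 1.52% and 1.55% of the counts of Mir18 (the gene of miR-18a), and Mir92-2 had 6.44% and 6.47% of those of Mir92-1. Mir19b-2 had 20 and 15 counts, against 50 and 44 for Mir19b-1. Since miR-106a-5p and miR-17-5p differ by 1 base, the split of reads between Mir106a and Mir17 is uncertain, and how many reads cross over was not tested. Mir92b had 2.10-fold the counts of Mir92-1, with log2 ratios of 1.15 and 0.99, where the count of Mir92-1 lacks its multimapping reads.

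Between the libraries the members differed about as much as other miRNA genes. Of the 10 members, 9 had at least 100 counts summed over both libraries, and 0 of these 9 differed by more than 0.5 log2 units, where 26 of all 306 such genes did, 8.5%. At that share fewer than 1 of 9 genes would pass, so the count of 0 is no result about the members. The median absolute log2 difference was 0.159 over the 9 members and 0.187 over the 306 genes. The median signed log2 difference, replicate 1 minus replicate 2, was -0.067 over the 9 members and -0.039 over the 306 genes. Mir19b-2 fell below this count minimum. Mir106b was lower in replicate 1 at -0.33 on the log2 scale (95% counting interval, exact, -0.35 to -0.31). Mir93 was at -0.19 (-0.20 to -0.17) and Mir20b at -0.19 (-0.27 to -0.11), while Mir106a, the fourth member of the miR-17 type, was at 0.024 (-0.043 to 0.091). Mir92b was the only member higher in replicate 1 beyond counting error, at 0.19 (0.16 to 0.22). The intervals of Mir25, Mir106a, Mir18b, Mir92-2 and Mir363 included 0, and the sign of Mir25, at -0.025, turned with TMM or median-of-ratios scaling. With 1 library on each side, these differences have no replicate check.

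**Figure D4:**
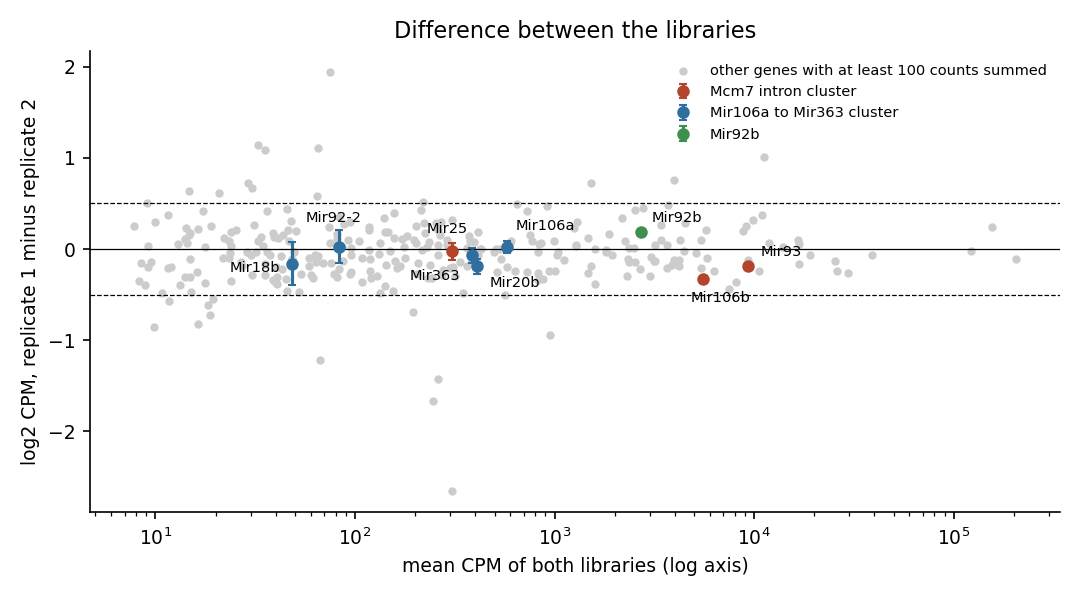
Log2 CPM in replicate 1 minus replicate 2 against mean CPM (log axis) for the 306 genes with at least 100 counts summed, 9 members in colour with exact 95% counting intervals and the other genes in grey. All 9 members lay inside the dashed lines at 0.5 log2 units either way, with Mir106b lowest at -0.33 and Mir92b highest at 0.19.

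The genes nearest to the main members in level were found by the distance of log2(CPM + 1) over the 2 libraries. Nearest to Mir93 was Mir181c, at 8922 and 9700 CPM (distance 0.047), then Mir26b and Mir615. Nearest to Mir106b were Mir143 at 5024 and 5788 CPM (distance 0.10), Mir369 and Mir137. Mir92b was nearest to Mir423 at 3208 and 2349 CPM (distance 0.19), followed by Mir431 and Mir125a. For Mir106a the nearest was Mir543 at 592 and 571 CPM (distance 0.022), with Mir370 and Mir674 after it. Mir25 had Mir669o, Mir185 and Mir376c within a distance of 0.14. With 2 libraries of 1 tissue, this likeness is one of level only.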

How the data were processed

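The authors deposited raw counts per miRNA gene for each library, with mm10 as the genome build and M4 as the annotation, per the file headers. The aligner is not given in the sources used here, nor is the counter. Each library has 3 count columns after 4 lines for unmapped, multimapping, unassigned and ambiguous reads. Those lines were left out of all totals. Column 3 was taken as the same-strand count, inferred from the values.

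Identifiers were matched without version to GENCODE M21 (GRCm38), and 1894 of 1973 matched. Seeds and shared stretches came from RefSeq hairpin and mature sequences on GRCm38.p6. CPM, shares and log2 ratios were computed in Python 3.11.15 with scipy 1.17.1. Replicate differences used a pseudocount of 0.5, and TMM factors came from edgeR 4.0.16. Intervals are exact Poisson, exact conditional binomial or Wilson at 95%. They cover counting error only, since PCR copies cannot be told from separate molecules without molecular identifiers. The interval, median-of-ratios and chi-square steps were tested on simulated Poisson counts, which lack the extra spread between these libraries. The TMM factors were not tested in this way. All 10 members were named, with the 6 Mir17hg genes and the 3 genes nearest in level to each of 5 members. Members and lists were chosen with earlier results of these data known. Replicates were separate tissue samples.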

Additional observations from a re-analysis of the deposited data

Results flagged for a closer look

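Opposite-strand counts, which the values above do not use, were 0 on 9 of the 10 members in both libraries. Mir92b had 4 such counts in replicate 1 and 0 in replicate 2, beside 20210 and 14509 on its own strand. The reads that mapped to several places, which are in no gene's count, numbered 3921182 in replicate 1 and 3310889 in replicate 2. Their sequences were not analysed here, so the share that belongs to Mir19b-2, Mir92-2 or any other member is unknown.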

How the results depend on the processing

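No direction of a cluster ratio changed under the alternatives run, but several could hardly change it. Unstranded counts and the minimum of 10 counts in each library left the mean log2 ratios at 3.33 and 2.49, as they hardly altered the members' counts. No alternative restored the multimapping reads. With each most abundant clustered gene left out, the mean log2 ratio of the Mcm7 intron cluster was 2.66 to the X chromosome cluster and 1.11 to Mir92b, since Mir93 holds most of its cluster. Leaving out a replicate gave 3.24 to 3.42 and 2.27 to 2.70, which are the ratios of the single libraries. Levels scaled with their total. Per 1000000 of all reads, unmapped and multimapping ones included, the Mcm7 intron cluster was at 7964, the X chromosome cluster at 789 and Mir92b at 1414. Without Mir10a in the total they were at 19088, 1892 and 3397 CPM. Unstranded counts left these 3 levels within 1 SD. With at least 10 counts in each library as the minimum, 49 genes of 371 passed 0.5 log2 units. Of the 9 members tested, 0 did so with TMM, median-of-ratios scaling, a pseudocount of 5 or unstranded counts. With TMM, 29 of all 306 genes did, so the count of 0 is again no result about the members. For the other 3 settings the count over all genes is not given here. Mir19b-2 had the fewest counts of the members, at 20 and 15. How far depth or the uncounted multimapping reads set this low count was not tested.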

Other observations

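A pair named after its values were seen, the miR-17 type genes Mir93 and Mir20b on different chromosomes, kept nearly the same ratio in both libraries, with log2 ratios of 4.51 in replicate 1 and 4.51 in replicate 2, while Mir106b over Mir106a gave 3.08 and 3.43. Outside the 4 loci, Mir32 carried the miR-25/92 seed at 107 and 134 CPM, above Mir92-2 and below Mir25. Mir367 had 1 and 0 counts, and Mir6383, which carries the miR-17 seed, had 0 in both libraries. In base composition, the mature miR-92b-3p had the highest G and C content of the members at 63.6%, and miR-19b-3p the lowest at 39.1%.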
